A study of Homo sapiens with 9 samples.

Results

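The genes described here are 38 regulators of autophagy and of the lysosome. They were taken as a fixed list of symbols, each read from HG-U133 Plus 2.0 probe sets that the array annotation assigns to that 1 symbol. All 38 were measured, on 98 of the 54613 probe sets that are not array controls, and they are 38 of the 19775 genes with such a probe set. Where a gene had several probe sets, the one with the highest mean over the 9 arrays stood for it (12 genes had 1 probe set and 26 had several).

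The cells were MDA-MB-231, an established human line from a triple-negative breast cancer with mesenchymal features, so all values describe 1 cell line. They were given AllStar, a negative control small RNA, or 1 of 2 microRNA mimics named Qmimic and Dmimic, in each case at 10 nM with a Lipofectamine reagent by reverse transfection. RNA was taken at 48 h from 3 biological replicates per group and read on 1 array per replicate, which makes 9 arrays. The study's title speaks of miR-34a and of AXL, a receptor tyrosine kinase, while the labels say neither what Q and D stand for nor what sequence either mimic has.

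Autophagy encloses cytoplasm in a double membrane, the autophagosome, which then fuses with the lysosome, where the content is degraded. The ULK1 kinase complex starts the membrane, ATG9A vesicles and the lipid carriers ATG2A and ATG2B feed it, a phosphatidylinositol 3-kinase complex around BECN1 marks it, and 2 linked conjugation systems attach proteins of the ATG8 family (LC3 and GABARAP) to it. Receptors such as SQSTM1 tether cargo to ATG8 proteins, and the transcription factors TFEB, TFE3 and MITF switch on genes of autophagy and of the lysosome, in part through a DNA motif called the CLEAR element.

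Certain sequences frame the comparisons. RefSeq's mature miR-34a of GRCh38.p14, from the minus strand at chr1:9151735-9151756, is given because the study title names it; the capitals mark the seed, bases 2 to 8.

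hsa-miR-34a-5p: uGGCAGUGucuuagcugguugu

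The second set shows where the core of the CLEAR element, CACGTG, stands in front of the listed genes. The core reads the same on both strands, and the longer form TCACGTGA contains it. RefSeq promoter windows, which run from 250 bases before to 50 bases after a transcription start, were found for 34 of the 38 genes (44 windows in GRCh38.p14), and none was found for ATG4D, UVRAG, LAMP2 and RB1CC1. CACGTG lay in 4 of the 44 windows (9.09%), against 2548 of 35116 windows of all genes (7.26%). TCACGTGA lay in 3 of the 44 (6.82%), against 344 of all (0.980%). The 4 genes were the lysosomal membrane protein LAMP1, the lysosomal calcium channel MCOLN1, the conjugating enzyme ATG3 and the kinase complex subunit ATG14. Their bases upstream of the start, on the strand of the gene, are printed with each CACGTG in capitals, for LAMP1 at chr13:113296989-113297238 (plus strand), MCOLN1 at chr19:7522374-7522623 (plus), ATG3 at chr3:112561963-112562062 (minus) and ATG14 at chr14:55411831-55411930 (minus).

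LAMP1: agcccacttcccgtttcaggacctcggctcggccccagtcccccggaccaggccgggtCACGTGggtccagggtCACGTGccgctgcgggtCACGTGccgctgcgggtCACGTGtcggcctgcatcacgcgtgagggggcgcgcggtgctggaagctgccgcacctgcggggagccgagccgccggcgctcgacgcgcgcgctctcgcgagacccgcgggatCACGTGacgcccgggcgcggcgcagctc
MCOLN1: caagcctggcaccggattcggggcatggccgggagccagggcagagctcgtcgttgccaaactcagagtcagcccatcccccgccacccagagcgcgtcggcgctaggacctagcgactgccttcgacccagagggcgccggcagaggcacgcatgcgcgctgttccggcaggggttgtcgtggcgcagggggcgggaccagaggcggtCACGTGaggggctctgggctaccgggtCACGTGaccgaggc
ATG3: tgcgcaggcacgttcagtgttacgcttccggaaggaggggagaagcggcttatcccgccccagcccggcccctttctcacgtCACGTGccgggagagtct
ATG14: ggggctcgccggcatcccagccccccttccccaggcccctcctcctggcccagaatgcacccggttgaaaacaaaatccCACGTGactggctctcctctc

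A match is a description of letters and not a measured binding site. LAMP1 has 6 copies in its window, of which 5 lie in the 250 bases shown and the other spans the start. MCOLN1 has 2 copies, the nearer of them 14 bases before the start, and both are part of TCACGTGA. ATG3 has a second copy after the start, outside the bases shown, and that copy is its TCACGTGA. The values of these 4 genes are given with their functional groups, and none of them passed the test.

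One control array stood apart. AllStar replicate 3 correlated with the other 8 arrays at 0.974 to 0.981 across probe sets, against 0.993 to 0.998 among those 8, its interquartile range was 2.99 against 3.41 to 3.53, and its 18S ribosomal RNA probe sets averaged 8.73 against 5.27 to 6.26 (log2). The differences of the 38 genes are therefore given with all 9 arrays and without this array, which leaves 8, and wherever values come from 1 of these fits the fit is named. AXL, named in the title, had log2 signals of 12.27 to 12.76 with AllStar, 11.54 to 11.85 with Qmimic and 11.55 to 11.83 with Dmimic. Markers of the line were high on every array (VIM at 13.53 to 13.71), and the epithelial cadherin CDH1, the leukocyte antigen PTPRC and the endothelial cadherin CDH5 stayed at 3.44 to 4.02, 3.73 to 4.46 and 3.19 to 3.58, below the array medians of 5.44 to 5.60. Other markers on the same lists lay above those medians on every array. Of the 8 luminal epithelial markers these were KRT18 (12.19 to 12.72), KRT8 (10.22 to 10.90), ERBB2 (8.11 to 8.78), EPCAM (7.25 to 8.36), GATA3 (7.45 to 8.61) and the estrogen receptor gene ESR1 (6.74 to 7.45), and of the others PECAM1 (6.03 to 6.77) and PDGFRB (6.77 to 7.41). CD14 ranged from 5.57 to 6.22.

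The array that stood apart was the lowest control for most of the listed genes. AllStar replicate 3 had the lowest signal of the 3 AllStar arrays for 32 of the 38. It lay a median of -0.35 from the mean of AllStar replicates 1 and 2 over the 38 genes, on the log2 scale, and below that mean for 33 of them. The same shift was -0.05 over all 19775 genes and -0.38 over the 8640 genes with a mean log2 signal of 7 to 12, the range that holds 36 of the 38. The median standard deviation within AllStar was 0.24 over the listed genes with 3 arrays and 0.03 with replicates 1 and 2 alone, against 0.07 within Qmimic and 0.09 within Dmimic. Marker lists of cell types moved with this array too, some up and some down. The mean over 3 leukocyte markers was 5.44 on it, 4.93 to 5.03 on the other AllStar arrays and 5.11 to 5.16 on the mimic arrays, and 2 of the 3 (PTPRC and CD3E) had their highest signal of the 9 arrays on it. The mean over 5 endothelial and fibroblast markers was 5.26 on it, 4.96 to 5.02 on the other AllStar arrays and 4.90 to 5.07 on the mimic arrays, and 3 of the 5 (PECAM1, VWF and PDGFRB) were highest on it. The mean over the 8 luminal markers was lower, 7.68 against 7.82 to 7.89 on the other AllStar arrays and 7.82 to 7.90 on the mimic arrays, with 5 of the 8 at their lowest there and 3 at their highest. The mean over 4 markers of the line itself was 12.56 against 12.73 to 12.75 and 12.69 to 12.75. Their part in the differences of the listed genes was not tested.

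**Figure D1:**
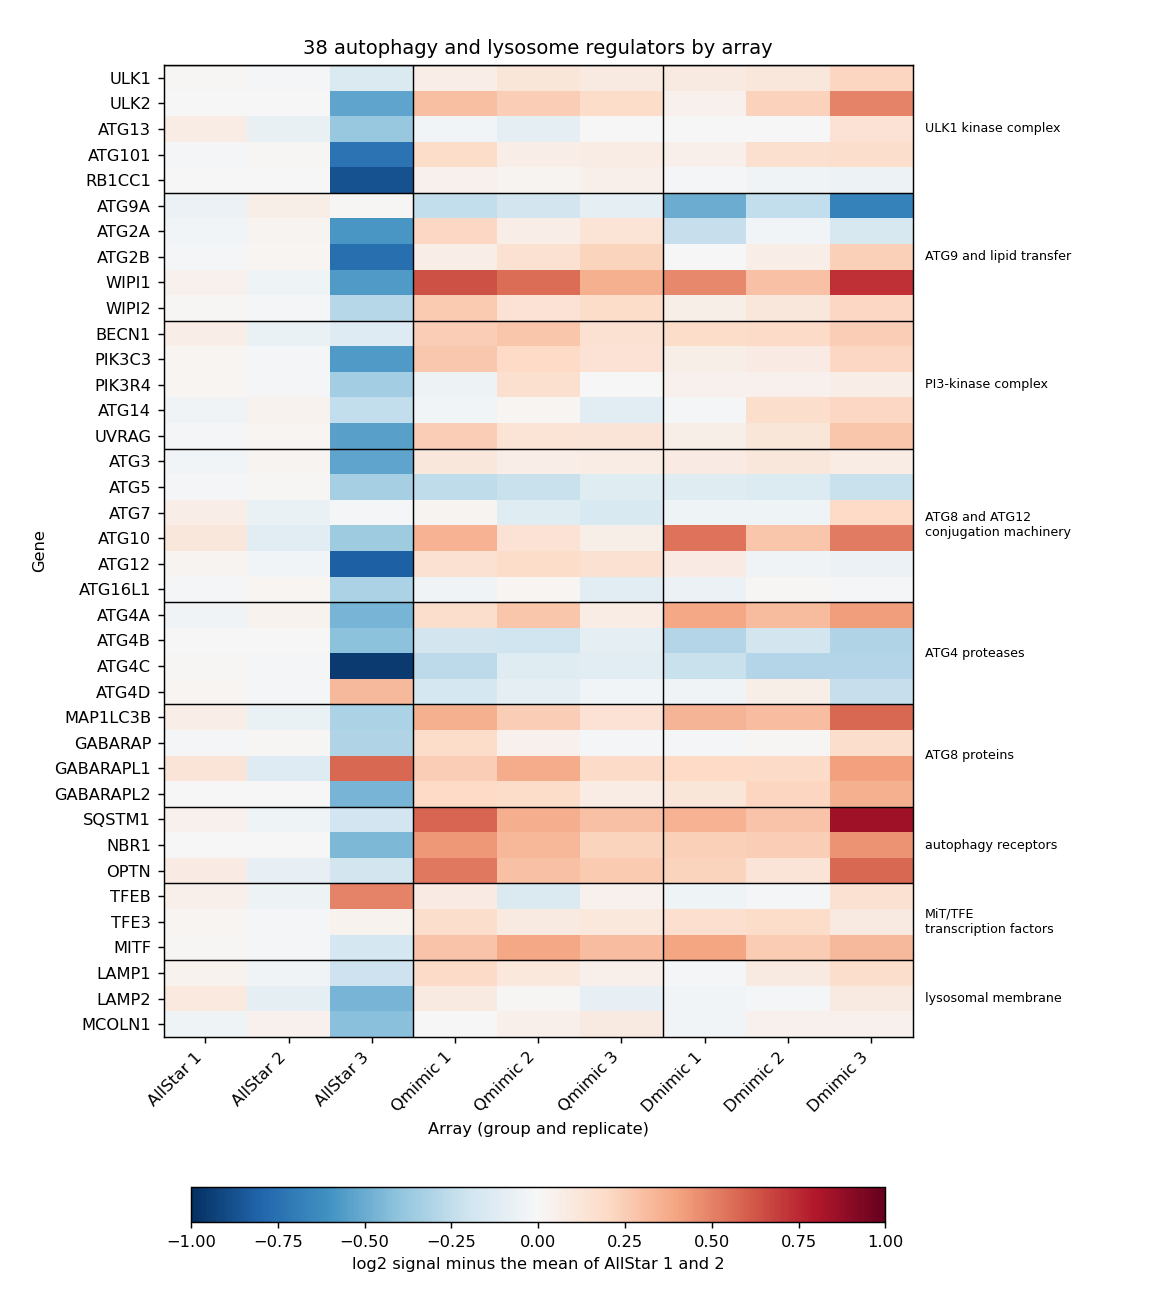
Log2 signal of the 38 genes (rows, by functional group) on the 9 arrays (columns), as the difference from the mean of AllStar replicates 1 and 2; red is higher and blue lower. AllStar replicate 3 lies below the mean of the other controls for 33 genes, and WIPI1, SQSTM1, NBR1, OPTN, MAP1LC3B and MITF are red on all 6 mimic arrays while ATG9A is blue.

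The comparison of each mimic with AllStar asks whether the regulators of autophagy differed in level after transfection. In these bulk extracts, fewer cells that express a gene and less RNA per cell cannot be told apart. The test was limma's moderated statistic with Benjamini-Hochberg adjustment over all 54613 probe sets, and a gene was called at an adjusted p under 0.05 together with a difference of at least 1.5-fold. None of the 38 genes was called for Qmimic against AllStar, for Dmimic against AllStar or for the mean of both mimics against AllStar, with 9 arrays or without AllStar replicate 3, and none of their 98 probe sets was. Over all 19775 genes the share called with 9 arrays was 0% for Qmimic, 0.0101% for Dmimic and 0.131% for the mean of both. Without AllStar replicate 3 it was 0.693% for Qmimic, 1.27% for Dmimic and 1.04% for the mean of both, so at that rate fewer than 1 of 38 genes would be called in any of them.

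Short of the threshold, most of the listed genes had somewhat higher signals with the mimics, as did most genes of their level. The unadjusted limma p was under 0.05 for 14 of 38 with Qmimic, 14 with Dmimic and 19 with the mean of both over 9 arrays, and for 15, 16 and 20 without AllStar replicate 3. In the latter fit these are 39.5%, 42.1% and 52.6% of the list, against 20.9%, 21.3% and 23.0% of all genes and 31.4%, 35.5% and 36.8% of genes with a mean signal of 7 to 12. With 9 arrays they are 36.8%, 36.8% and 50% of the list, against 19.7%, 17.3% and 24.1% of all genes. Among genes with a mean signal of 7 to 12 the shares with 9 arrays were 27.7%, 28.7% and 35.9%. The median log2 difference from AllStar over the 38 was 0.26 for Qmimic and 0.21 for Dmimic with 9 arrays, and 0.12 and 0.11 without AllStar replicate 3. Over all genes the medians were -0.02 and -0.01 with 9 arrays and -0.01 and 0.01 without the array, and over genes with a mean signal of 7 to 12 they were 0.16 and 0.15, and 0.04 and 0.03. The list's median thus moved by over 1.5 times with 1 control array. Differences were above 0 for 32 of the 38 with Qmimic and 33 with Dmimic over 9 arrays (75.6% and 73.4% of genes with a mean signal of 7 to 12), and for 28 and 29 without AllStar replicate 3 (60.1% and 56.8%).

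The arrays were also counted without a model. The 3 Qmimic arrays all lay above the 3 AllStar arrays for 22 of the 38 genes and all below for 2, against 19.2% and 11.0% of all genes. For Dmimic the counts were 19 above and 1 below, against 17.1% and 7.13%. Among the 36 listed genes with a mean signal of 7 to 12 the counts above were 21 and 17, where all genes in that range gave 36.2% and 31.4%. Both comparisons use the same AllStar arrays, so their values are set side by side and are not 2 separate observations.

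**Figure D2:**
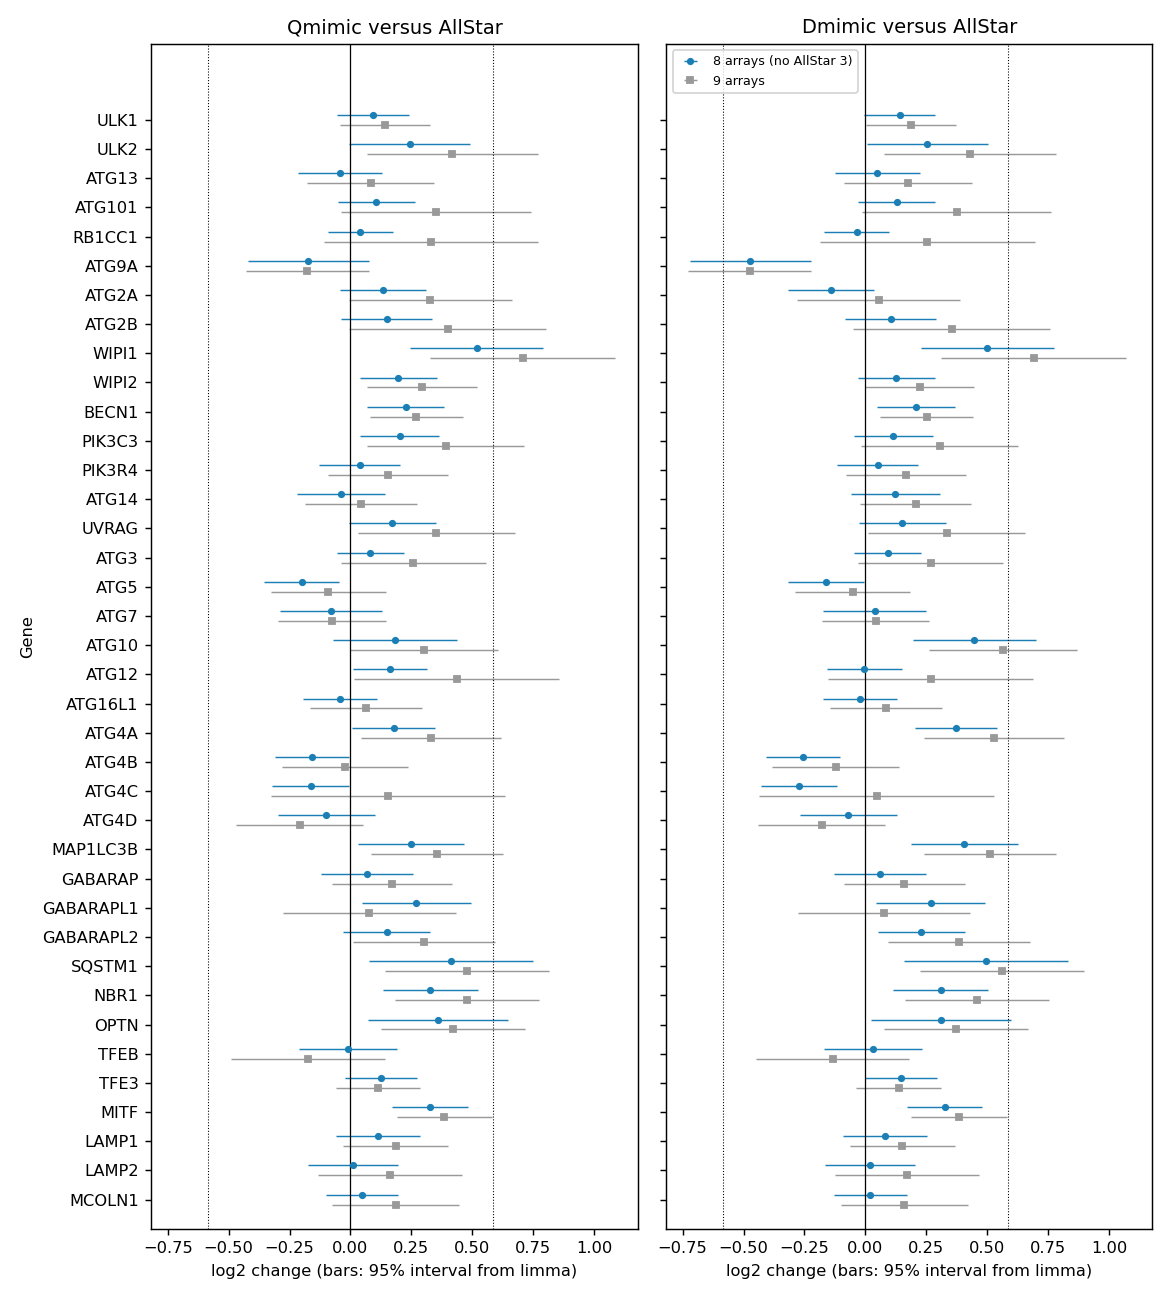
Log2 difference of each mimic from AllStar for the 38 genes (points) with limma's 95% interval (bars), without AllStar replicate 3 (blue circles) and with all 9 arrays (grey squares); dotted lines mark 1.5-fold. No gene passed both thresholds, and the highest point is WIPI1 at 0.71 for Qmimic with 9 arrays.

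The kinase complex that starts autophagosomes had small differences from AllStar. ULK1, the kinase itself, had log2 signals of 7.26, 7.23 and 7.10 with AllStar, 7.32, 7.37 and 7.33 with Qmimic, and 7.34, 7.36 and 7.46 with Dmimic. Every mimic array was above every AllStar array, but by little: the difference was 0.14 ± 0.18 for Qmimic and 0.19 ± 0.18 for Dmimic with 9 arrays and 0.09 ± 0.15 and 0.14 ± 0.15 without AllStar replicate 3, where ± is here and below the half-width of limma's 95% interval. With 9 arrays the 5 genes had a median of 0.33 for Qmimic and 0.25 for Dmimic, and without AllStar replicate 3 of 0.09 and 0.13. The related kinase ULK2 had the highest values, 0.42 ± 0.35 and 0.43 ± 0.35 with 9 arrays and 0.24 ± 0.25 and 0.25 ± 0.25 without the control array. These come from a probe set with low signals of 4.45 to 5.47. On another ULK2 probe set the Dmimic arrays (5.04, 5.16 and 5.33) lay above the controls (4.79, 4.98 and 4.75). The Qmimic arrays (5.13, 5.16 and 4.98) met them at 4.98. On the further ones, at 4.30 to 4.61 and 3.82 to 4.29, both mimic groups overlapped the controls. The adaptor ATG13 had 0.08 ± 0.26 and 0.18 ± 0.26 with 9 arrays. Without AllStar replicate 3 it had -0.04 ± 0.17 and 0.05 ± 0.17, so that its Qmimic value changed sign with that array. For the scaffold RB1CC1 AllStar replicate 3 was at 8.43 and the other 8 arrays at 9.25 to 9.35, and its difference for Qmimic was 0.33 ± 0.44 with that array and 0.04 ± 0.13 without it. ATG101, a partner of ATG13, went from 0.35 ± 0.39 to 0.11 ± 0.16 in the same comparison.

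Genes of the step that brings lipid to the growing membrane held the highest value of the list for each mimic and the lowest for Dmimic. WIPI1, which binds the phosphoinositide made by the 3-kinase complex, is encoded on chromosome 17. Its signals were 9.03, 8.94 and 8.41 with AllStar, 9.62, 9.54 and 9.34 with Qmimic, and 9.46, 9.27 and 9.71 with Dmimic. Neither group of mimic arrays overlapped the controls. The log2 difference was 0.71 ± 0.38 for Qmimic (adjusted p = 0.183) and 0.69 ± 0.38 for Dmimic (adjusted p = 0.167) with 9 arrays. Without AllStar replicate 3 it was 0.52 ± 0.27 (adjusted p = 0.0659) and 0.50 ± 0.27 (adjusted p = 0.0644), and for the mean of both mimics 0.51 ± 0.25, or 1.42-fold, with an adjusted p of 0.0400 that passed while the fold did not. The other WIPI1 probe set gave 0.68 and 0.70 with 9 arrays and 0.45 and 0.46 without the control array. Leaving out Dmimic replicate 2 as well as AllStar replicate 3 brought WIPI1 to 0.61 for Dmimic with an adjusted p of 0.0248, the 1 instance in which a listed gene was called.

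ATG9A, the membrane protein whose vesicles seed the autophagosome, lay on the other side. It is encoded on chromosome 2 and its signals were 8.76, 8.88 and 8.83 with AllStar, 8.57, 8.63 and 8.73 with Qmimic, and 8.32, 8.57 and 8.14 with Dmimic. All 6 mimic arrays were below all 3 controls, and AllStar replicate 3 lay between the other controls here. For Dmimic the log2 difference was -0.48 ± 0.25 with 9 arrays (adjusted p = 0.152) and -0.47 ± 0.25 without AllStar replicate 3 (adjusted p = 0.0578). For Qmimic it was -0.18 ± 0.25 and -0.17 ± 0.25 (adjusted p = 0.403 and 0.454). The lipid carriers ATG2A and ATG2B and the WIPI1 relative WIPI2 had differences of 0.33 ± 0.33, 0.40 ± 0.41 and 0.29 ± 0.23 for Qmimic with 9 arrays, and of 0.13 ± 0.18, 0.15 ± 0.19 and 0.20 ± 0.16 without the control array. For Dmimic they were 0.05 ± 0.33, 0.35 ± 0.41 and 0.22 ± 0.23 with 9 arrays and -0.14 ± 0.18, 0.10 ± 0.19 and 0.13 ± 0.16 without it, so that ATG2A changed sign.

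In the phosphatidylinositol 3-kinase complex, BECN1, its regulatory core subunit, was above the controls on every mimic array for the probe set used. The BECN1 signals were 9.67, 9.53 and 9.47 with AllStar, 9.84, 9.88 and 9.76 with Qmimic, and 9.78, 9.79 and 9.85 with Dmimic. That difference was 0.27 ± 0.19 and 0.25 ± 0.19 with 9 arrays and 0.23 ± 0.16 and 0.21 ± 0.16 without AllStar replicate 3 (adjusted p = 0.133 and 0.160). On another BECN1 probe set the Qmimic arrays (9.32, 9.28 and 9.26) overlapped the controls (9.24, 9.28 and 8.88). The Dmimic arrays (9.44, 9.39 and 9.44) lay above the controls there. The Qmimic difference of BECN1 thus rests on the probe set used. The kinase subunit PIK3C3 had the highest Qmimic value of the complex with 9 arrays (0.39 ± 0.32, and 0.20 ± 0.16 without the control array). UVRAG, which joins the complex in a form separate from that with ATG14, was at 0.35 ± 0.32 for Qmimic and 0.33 ± 0.32 for Dmimic with 9 arrays, and at 0.17 ± 0.18 and 0.15 ± 0.18 without that array. ATG14 had signals of 8.14, 8.21 and 7.93 with AllStar, 8.15, 8.20 and 8.07 with Qmimic, and 8.17, 8.35 and 8.39 with Dmimic. The ATG14 groups overlapped, with 0.04 ± 0.23 and 0.21 ± 0.23 over 9 arrays and -0.04 ± 0.18 and 0.12 ± 0.18 without the control array. The pseudokinase PIK3R4 went from 0.15 ± 0.25 and 0.17 ± 0.25 to 0.04 ± 0.17 and 0.05 ± 0.17. Without AllStar replicate 3 each of these 3 genes thus had a smaller difference by over 1.5 times or, for ATG14 with Qmimic, one of the other sign.

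The conjugation machinery had medians near 0 without AllStar replicate 3. Over its 6 genes they were 0.16 for Qmimic and 0.18 for Dmimic with 9 arrays and 0.02 for each without that array. ATG10, which conjugates ATG12 to ATG5, had low signals of 5.46, 5.23 and 4.99 with AllStar, 5.69, 5.49 and 5.41 with Qmimic, and 5.89, 5.62 and 5.87 with Dmimic. Only the Dmimic arrays of ATG10 cleared the controls, by 0.56 ± 0.30 with 9 arrays (adjusted p = 0.156) and 0.45 ± 0.25 without AllStar replicate 3 (adjusted p = 0.0702). On the probe set used, ATG5 was the lowest of the group for Qmimic without that array, at -0.20 ± 0.15 (adjusted p = 0.163), and -0.09 ± 0.24 with it. On another ATG5 probe set the Dmimic arrays (6.78, 6.80 and 6.73) lay above the controls (6.54, 6.58 and 5.98). The Qmimic arrays (6.61, 6.75 and 6.57) overlapped them there. On a further one the mimic arrays (8.29 to 8.52) lay between AllStar replicate 3 (8.05) and the other controls (8.65 and 8.68). The direction for ATG5 thus rests on the probe set used. ATG12 stood at 9.14 on AllStar replicate 3 and at 9.89 to 10.14 on the other arrays, and its Qmimic difference was 0.44 ± 0.42 with that control and 0.16 ± 0.15 without it. On another ATG12 probe set the Qmimic arrays (8.28, 8.16 and 8.14) overlapped AllStar replicates 1 and 2 (8.28 and 8.22). On a further one they (6.56, 6.68 and 6.56) lay above the controls (6.54, 6.46 and 6.47). ATG3, which attaches ATG8 proteins to lipid, had signals of 10.37, 10.42 and 9.86 with AllStar, 10.50, 10.46 and 10.46 with Qmimic, and 10.47, 10.51 and 10.47 with Dmimic. The ATG3 mimic arrays were above the controls, by 0.26 ± 0.30 and 0.27 ± 0.30 with 9 arrays and by 0.08 ± 0.14 and 0.09 ± 0.14 without AllStar replicate 3. ATG7 and ATG16L1 had Qmimic differences of -0.08 ± 0.22 and 0.06 ± 0.23 with that control and of -0.08 ± 0.21 and -0.04 ± 0.15 without it.

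The 4 ATG4 proteases, which trim ATG8 proteins before conjugation and release them from membranes, did not share a direction. ATG4A, on chromosome X, had signals of 7.79, 7.86 and 7.36 with AllStar, 8.0, 8.10 and 7.90 with Qmimic, and 8.21, 8.13 and 8.24 with Dmimic. Its 3 groups did not overlap and Dmimic was the highest. For Dmimic the difference was 0.53 ± 0.29 with 9 arrays (adjusted p = 0.163) and 0.37 ± 0.17, or 1.29-fold, without AllStar replicate 3 (adjusted p = 0.0382). For Qmimic it was 0.33 ± 0.29 and 0.18 ± 0.17 (adjusted p = 0.274 and 0.254). ATG4B had signals of 8.70, 8.70 and 8.29 with AllStar, 8.52, 8.50 and 8.60 with Qmimic, and 8.41, 8.51 and 8.40 with Dmimic. On the probe set used the ATG4B mimic arrays lay between AllStar replicate 3 and the other controls. Its Dmimic difference there was -0.12 ± 0.26 with 9 arrays and -0.26 ± 0.15 without that control (adjusted p = 0.622 and 0.0789). On another ATG4B probe set they (8.06 to 8.25) lay between those controls too (7.94, against 8.29 and 8.39). On a further one they (6.63 to 6.87) lay below all controls (6.91, 6.98 and 6.88). The ATG4C mimic arrays also lay between AllStar replicate 3 and the other controls, which were further apart. AllStar replicate 3 was at 6.62 and the other controls at 7.58 and 7.56. The ATG4C Dmimic difference was 0.05 ± 0.48 with 9 arrays and -0.27 ± 0.16 without AllStar replicate 3. ATG4D was at -0.21 ± 0.26 for Qmimic and -0.18 ± 0.26 for Dmimic with 9 arrays, and at -0.10 ± 0.20 and -0.07 ± 0.20 without it.

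**Figure D3:**
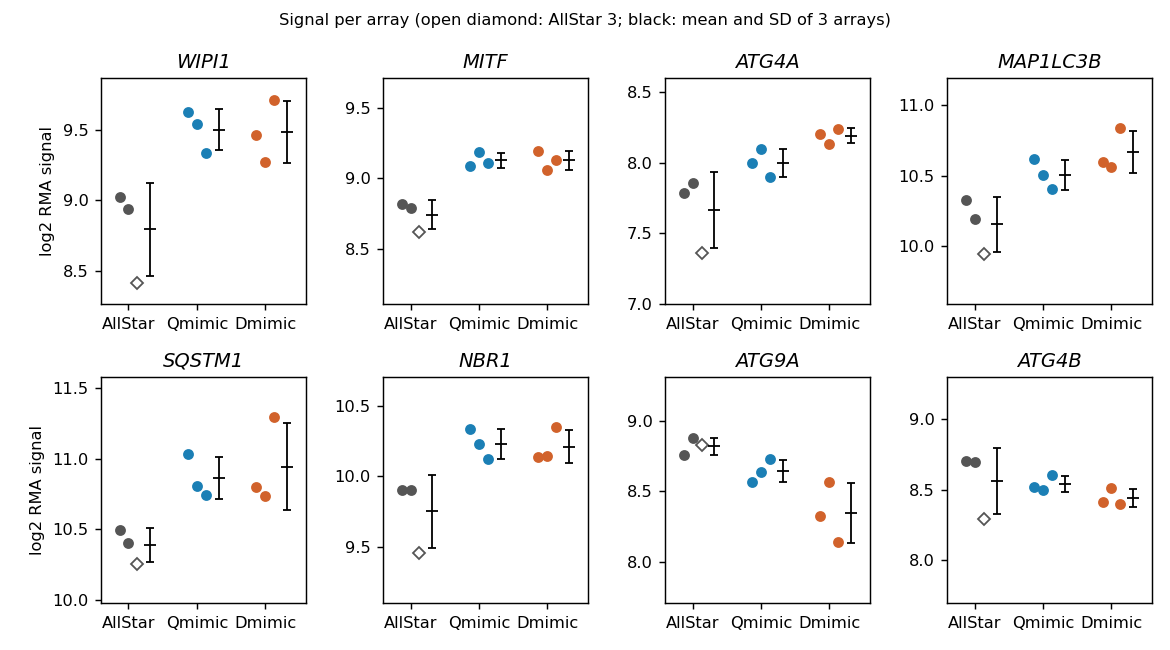
Log2 signal of 8 listed genes on each array (dots; the open diamond is AllStar replicate 3), with the mean and standard deviation of the 3 arrays of each group in black; every panel spans the same number of log2 units. Each gene is shown on the probe set used for it. The mimic arrays of WIPI1, MITF, ATG4A, MAP1LC3B, SQSTM1 and NBR1 lie above all AllStar arrays. Those of ATG9A lie below, and those of ATG4B between AllStar replicate 3 and the other controls.

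Of the ATG8 proteins, which coat the autophagosome and bind cargo receptors, MAP1LC3B stood highest against its controls with 9 arrays, and without AllStar replicate 3 it did so for Dmimic but not for Qmimic. Its signals were 10.33, 10.19 and 9.94 with AllStar, 10.62, 10.50 and 10.40 with Qmimic, and 10.60, 10.57 and 10.84 with Dmimic. Neither mimic group overlapped the controls on the probe set used. For Dmimic the difference was 0.51 ± 0.27 with 9 arrays (adjusted p = 0.152) and 0.41 ± 0.22 without AllStar replicate 3 (adjusted p = 0.0619). For Qmimic it was 0.35 ± 0.27 and 0.25 ± 0.22 (adjusted p = 0.245 and 0.219). On the other MAP1LC3B probe set the Qmimic arrays (10.27, 10.15 and 10.06) overlapped the controls (10.08, 9.99 and 9.61). The Dmimic arrays (10.21, 10.18 and 10.48) lay above the controls there too. GABARAPL2 was at 0.30 ± 0.29 for Qmimic and 0.38 ± 0.29 for Dmimic with 9 arrays, and at 0.15 ± 0.18 and 0.23 ± 0.18 without the control array. GABARAP was at 0.17 ± 0.25 and 0.16 ± 0.25 with 9 arrays, and at 0.07 ± 0.19 and 0.06 ± 0.19 without it. GABARAPL1 was 1 of 4 listed genes for which AllStar replicate 3 was the highest control (7.87, against 7.43 and 7.17), and its Qmimic difference was 0.08 ± 0.35 with 9 arrays and 0.27 ± 0.22, above that of MAP1LC3B, without that array.

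The 3 autophagy receptors, which link ubiquitin-tagged cargo to ATG8 proteins, had the highest median of the 9 functional groups for each mimic, 0.48 for Qmimic and 0.46 for Dmimic with 9 arrays and 0.36 and 0.31 without AllStar replicate 3. SQSTM1, also called p62, had signals of 10.50, 10.40 and 10.26 with AllStar, 11.04, 10.81 and 10.75 with Qmimic, and 10.80, 10.74 and 11.30 with Dmimic. All 6 mimic arrays were above the controls on the probe set used, and Dmimic replicate 3 was above the other 2 of its group. The SQSTM1 difference was 0.48 ± 0.34 for Qmimic and 0.56 ± 0.34 for Dmimic with 9 arrays (adjusted p = 0.228 and 0.193), and 0.41 ± 0.34 and 0.50 ± 0.34 without AllStar replicate 3 (adjusted p = 0.184 and 0.118). NBR1, a receptor of like build, had signals of 9.90, 9.90 and 9.45 with AllStar, 10.34, 10.23 and 10.12 with Qmimic, and 10.14, 10.15 and 10.35 with Dmimic. These did not overlap, with differences of 0.48 ± 0.29 for Qmimic and 0.46 ± 0.29 for Dmimic with 9 arrays and of 0.33 ± 0.19 and 0.31 ± 0.19 without AllStar replicate 3 (adjusted p = 0.0882 and 0.0956). A second NBR1 probe set, at 8.57 to 9.30, overlapped its controls and gave -0.01 ± 0.18 and 0.11 ± 0.18 in the latter fit, so the NBR1 difference rests on the probe set used. OPTN, a receptor for damaged mitochondria and bacteria among other cargo, had signals of 10.05, 9.89 and 9.78 with AllStar, 10.50, 10.26 and 10.23 with Qmimic, and 10.20, 10.10 and 10.54 with Dmimic. Its difference was 0.42 ± 0.30 and 0.37 ± 0.30 with 9 arrays and 0.36 ± 0.29 and 0.31 ± 0.29 without that control (adjusted p = 0.178 and 0.252).

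Among the MiT/TFE transcription factors, MITF had the smallest adjusted p of the whole list for Qmimic. MITF, which also directs the melanocyte lineage, lies on chromosome 3. Its signals were 8.82, 8.79 and 8.62 with AllStar, 9.09, 9.19 and 9.11 with Qmimic, and 9.20, 9.06 and 9.13 with Dmimic. The 6 mimic arrays lay together above the 3 controls. With 9 arrays the difference was 0.39 ± 0.20 for each mimic (adjusted p = 0.173 for Qmimic and 0.138 for Dmimic). Without AllStar replicate 3 it was 0.33 ± 0.15 for each, or 1.25-fold, with adjusted p values of 0.0481 and 0.0426 and of 0.0273 for the mean of both mimics. A second MITF probe set gave 0.54 ± 0.33 and 0.58 ± 0.33 with 9 arrays and 0.34 ± 0.16 and 0.38 ± 0.16 without that control, while the third, at log2 signals of 3.18 to 3.83, gave -0.07 ± 0.34 and 0.11 ± 0.34 with 9 arrays.

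TFE3 and TFEB, the other factors of the family, differed less. TFE3 signals were 9.93, 9.89 and 9.95 with AllStar, 10.09, 10.00 and 10.02 with Qmimic, and 10.08, 10.10 and 10.01 with Dmimic, a difference of 0.11 ± 0.17 and 0.14 ± 0.17 with 9 arrays and of 0.12 ± 0.15 and 0.15 ± 0.15 without AllStar replicate 3. TFEB signals were 7.08, 6.97 and 7.52 with AllStar, 7.10, 6.88 and 7.06 with Qmimic, and 6.98, 7.01 and 7.17 with Dmimic, so that its groups overlapped. The TFEB difference was -0.18 ± 0.32 and -0.13 ± 0.32 with 9 arrays and -0.01 ± 0.20 and 0.03 ± 0.20 without AllStar replicate 3. The other TFEB probe set had the opposite sign with 9 arrays, at 0.27 ± 0.22 and 0.17 ± 0.22, so no direction is given for this gene.

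For each of the 3 lysosomal membrane genes, on the probe set used, limma's 95% interval held 0 in both comparisons and both fits. LAMP1, an abundant glycoprotein of that membrane, had signals of 11.64, 11.57 and 11.40 with AllStar, 11.80, 11.71 and 11.66 with Qmimic, and 11.59, 11.70 and 11.78 with Dmimic. Qmimic arrays were above the controls and Dmimic arrays overlapped them, with differences of 0.18 ± 0.21 and 0.15 ± 0.21 with 9 arrays and 0.11 ± 0.17 and 0.08 ± 0.17 without AllStar replicate 3. On another probe set the mimic arrays (8.09, 7.67 and 7.96 for Qmimic, 7.94, 7.97 and 7.85 for Dmimic) lay below AllStar replicates 1 and 2 (8.13 and 8.22). On a further one, at 6.63 to 7.05, they lay above all controls, and on one at 9.88 to 10.43 they overlapped. The direction for LAMP1 thus rests on the probe set used. LAMP2, its close relative, had signals of 10.66, 10.47 and 10.10 with AllStar, 10.66, 10.58 and 10.49 with Qmimic, and 10.54, 10.55 and 10.66 with Dmimic. MCOLN1, the calcium channel, had signals of 8.54, 8.63 and 8.17 with AllStar, 8.59, 8.64 and 8.68 with Qmimic, and 8.56, 8.63 and 8.63 with Dmimic. Both overlapped their controls on the probe set used. With 9 arrays the differences were 0.16 ± 0.30 and 0.17 ± 0.30 for LAMP2 and 0.19 ± 0.26 and 0.16 ± 0.26 for MCOLN1, and without that array they were 0.01 ± 0.18 and 0.02 ± 0.18 for LAMP2 and 0.05 ± 0.15 and 0.02 ± 0.15 for MCOLN1. These intervals leave out a 1.5-fold difference in either direction for the probe sets used of LAMP1, LAMP2 and MCOLN1 in that fit. On another LAMP2 probe set the mimic arrays (9.95 to 10.18) lay above all controls (9.84, 9.93 and 9.28). On a further one they (9.46 to 9.73) also lay above all controls (9.43, 9.42 and 8.70), and on the remaining one they overlapped. The reading for LAMP2 thus rests on the probe set used as well.

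Taking the adjusted p alone, with no threshold on the fold, MITF was the 1 listed gene higher with Qmimic without AllStar replicate 3, against 1.32% of all genes. With Dmimic MITF and ATG4A were higher, against 1.79% of all genes, and with the mean of both mimics MITF and WIPI1, against 2.49%. A count of 1 or 2 among 38 is too small to be set apart from such shares. No listed gene was lower by this rule, and with 9 arrays weighted equally none passed it in either direction. When limma estimated a weight for each of the 9 arrays (0.0572 for AllStar replicate 3 and 5.17 for AllStar replicate 2, with 0.775 to 1.62 for the others), 11 of the 38 passed for Qmimic and 13 for Dmimic, 10 of them higher in each case. These are 28.9% and 34.2% of the list, against 21.1% and 14.7% of all genes and 29.3% and 23.9% of genes with a mean signal of 7 to 12. The AllStar mean of this weighted fit rests mostly on AllStar replicate 2, at 5.17 beside 0.896 for AllStar replicate 1. In this weighted fit WIPI1 had an adjusted p of 0.00214 for Qmimic at a difference of 0.54, and ATG9A one of 0.00278 for Dmimic at -0.49. None of the 38 also reached 1.5-fold there, against 1.29% and 1.86% of all genes that did.

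Qmimic and Dmimic were also set against each other, a comparison in which AllStar enters only through the estimate of the spread. No listed gene was called, against 0% of all genes with 9 arrays and 0.0961% without AllStar replicate 3. The median difference over the 38 was -0.00, with 19 genes higher and 19 lower with Qmimic. The smallest adjusted p in the fit of 8 arrays belonged to ATG2A, which was at 8.95, 8.80 and 8.87 with Qmimic and at 8.51, 8.72 and 8.58 with Dmimic. The ATG2A groups did not overlap, with a difference of 0.27 ± 0.16 (adjusted p = 0.198). ATG9A was 0.30 ± 0.22 higher with Qmimic (adjusted p = 0.313) and ATG12 0.17 ± 0.14 higher (adjusted p = 0.354). ATG4A and ATG10 had differences of -0.20 ± 0.15 and -0.26 ± 0.23 (adjusted p = 0.332 and 0.377). Another ATG12 probe set had overlapping groups, with Qmimic at 8.28, 8.16 and 8.14 and Dmimic at 8.36, 8.25 and 8.31. So did a further one, with Qmimic at 6.56, 6.68 and 6.56 and Dmimic at 6.59, 6.58 and 6.86. The ATG12 difference between the mimics thus rests on the probe set used. A p above the threshold does not show that the mimics act alike, and in that fit the widest 95% half-width of any listed gene was 0.30.

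The place of single arrays within their group differed between the listed genes and others of their level. Dmimic replicate 3 was the highest of its group for 24 of the 38 genes (63.2%), against 40.2% of genes with a mean signal of 7 to 12. Qmimic replicate 1 was the highest of its group for 20 (52.6%), against 39.6%. For ATG9A the order was turned, with Dmimic replicate 3 the lowest of its group.

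Genes that act with the listed ones were read in 7 further lists of 142 symbols, of which 131 were measured, covering the content and membrane of the lysosome, its proton pump, nutrient sensing, further autophagosome factors, fusion and further receptors. With 9 arrays none of the 131 was called, and their median difference was 0.22 for Qmimic and 0.20 for Dmimic, beside 0.26 and 0.21 for the 38. Without AllStar replicate 3 the medians were 0.11 and 0.10, none of the 131 was called for Qmimic, and 3 were called for Dmimic: GALC and OSTM1 higher and SMPD1 lower. These 3 are 2.29% of the 131, against 1.27% of all genes in that fit, a count too small to be set apart from it. Each gene of these lists was read only from its probe set with the highest mean. SMPD1 and OSTM1 have 4 probe sets each and GALC has 2, and the remaining ones were not analysed here.

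SMPD1, the acid sphingomyelinase, had signals of 8.54, 8.40 and 8.04 with AllStar, 8.01, 8.14 and 8.14 with Qmimic, and 7.61, 7.90 and 7.30 with Dmimic. All Dmimic arrays were below all controls, and the difference was -0.87 ± 0.31, or 1.82-fold, without AllStar replicate 3 (adjusted p = 0.0201) and -0.72 ± 0.36 with 9 arrays (adjusted p = 0.134). GALC, which degrades galactosylceramide, had signals of 8.72, 8.68 and 7.92 with AllStar, 9.44, 9.27 and 9.15 with Qmimic, and 9.18, 9.17 and 9.64 with Dmimic. The GALC groups did not overlap the controls, and the Dmimic difference was 0.63 ± 0.30, or 1.55-fold (adjusted p = 0.0454), and 0.89 ± 0.47 with 9 arrays (adjusted p = 0.152). OSTM1, a partner subunit of a lysosomal chloride transporter, had signals of 8.06, 8.01 and 7.18 with AllStar, 8.44, 8.47 and 8.34 with Qmimic, and 8.75, 8.55 and 9.16 with Dmimic. Its Dmimic arrays were the highest, with a difference of 0.79 ± 0.32, or 1.72-fold (adjusted p = 0.0265), and 1.07 ± 0.50 with 9 arrays (adjusted p = 0.124).

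Of the other genes on these lists none was called, and those with the smallest adjusted p of each list ranged widely. Their values here are without AllStar replicate 3; with 9 arrays the smallest adjusted p among them was 0.130, for WDFY3 with Dmimic. FLCN (folliculin, which acts on the Rag GTPases upstream of TFE3 and TFEB) had signals of 6.65, 6.76 and 7.01 with AllStar, 7.15, 7.35 and 7.35 with Qmimic, and 7.24, 7.09 and 7.08 with Dmimic. Each mimic array of FLCN exceeded the controls, and the difference was 0.58 ± 0.19 for Qmimic (adjusted p = 0.0151, just under 1.5-fold) and 0.44 ± 0.19 for Dmimic (adjusted p = 0.0343). PRKAB2, a subunit of the energy sensor AMPK, was at 0.38 for Qmimic (adjusted p = 0.0329) and 0.28 for Dmimic (adjusted p = 0.0683). Of the proton pump, the catalytic subunit ATP6V1A was at 0.58 for Qmimic (adjusted p = 0.0333) and 0.44 for Dmimic (adjusted p = 0.0654). Its partner ATP6V1B2 was at 0.36 for Dmimic (adjusted p = 0.0308), and ATP6V0A1, of the part in the membrane, at 0.27 for Qmimic (adjusted p = 0.113). Among fusion factors the tethering subunit VPS33A was at 0.48 for Qmimic and 0.42 for Dmimic (adjusted p = 0.0489 and 0.0645), and the tether EPG5 at 0.37 and 0.38 (adjusted p = 0.0758 and 0.0653). Of the further receptors, the scaffold WDFY3 was at 0.51 for Dmimic (adjusted p = 0.0358) and CALCOCO2, also called NDP52, at -0.54 (adjusted p = 0.0267). For Qmimic CALCOCO2 was at -0.31 (adjusted p = 0.130) and the receptor TAX1BP1 at 0.23 (adjusted p = 0.152). The further autophagosome factors had medians of 0.05 and 0.03. Of these, WDR45, a relative of the WIPI proteins, was at 0.18 and 0.20 (adjusted p = 0.285 and 0.251) and ATG16L2, a relative of ATG16L1, at -0.18 and -0.25 (adjusted p = 0.290 and 0.147). TCACGTGA lay in 13 of the 148 promoter windows found for these lists (8.78%), beside 3 of 44 for the 38 genes.

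**Figure D4:**
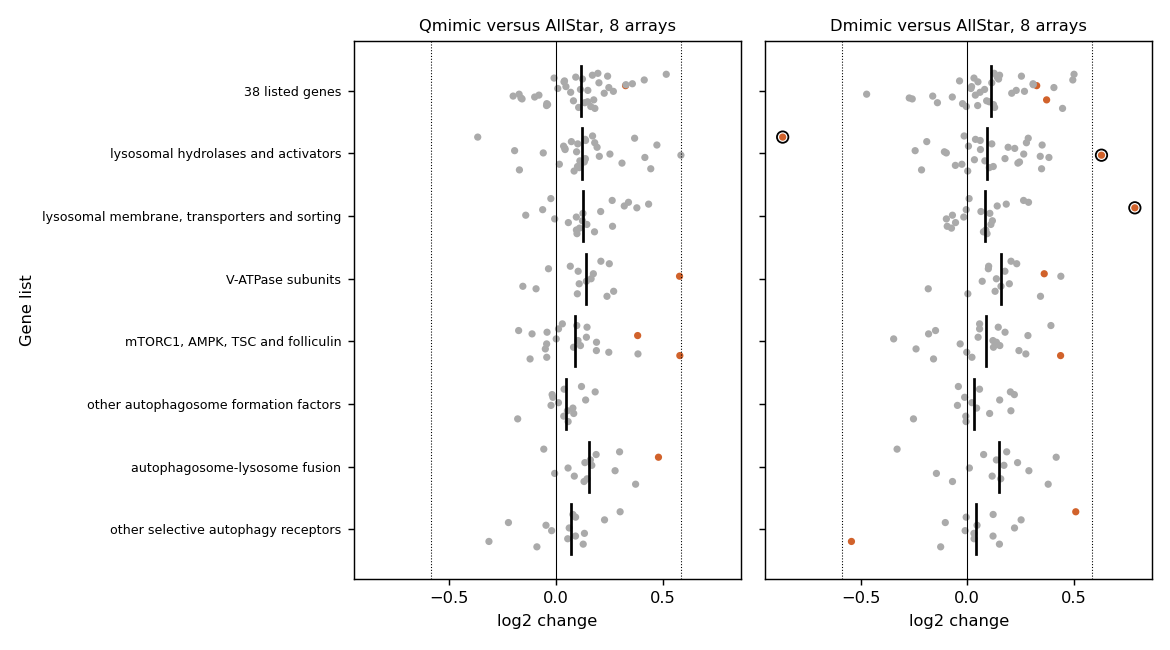
Log2 difference from AllStar without AllStar replicate 3 for the 38 genes and the 7 further lists (points are genes, black bars list medians); orange marks an adjusted p under 0.05, a ring a gene that also reached 1.5-fold (dotted lines). The rings are SMPD1, GALC and OSTM1, all for Dmimic, and the medians of the 38 are 0.12 and 0.11.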

How the data were processed

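The data were Affymetrix HG-U133 Plus 2.0 arrays, 1 for each of 9 samples. The authors deposited log2 RMA signals per probe set (background correction, quantile normalization and probe summary belong to RMA), with RMA and limma, but no versions, named per the submitters' processing notes. The deposited table held 54675 probe sets. The 62 controls were left out of the tests and no filter on low signals was used. The platform annotation named 1 gene for 41091 of the other 54613 probe sets, several for 1801 and none for 11721.

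A linear model with 3 group means was fitted in limma 3.58.1 (R 4.3.3; eBayes without trend) to 9 arrays, and again without AllStar replicate 3. Adjusted p values are Benjamini-Hochberg over 54613 probe sets. The thresholds follow the series text, which can also be read as a log2 difference of 1.5; this was run as an alternative, with further ones given in the closing section. The fitting step was tested on simulated data.

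The genes, their groups and the further lists were chosen with earlier results of these data known. The range of 7 to 12 for the mean signal and the places of arrays within groups were chosen after seeing the values. Genes were named when called, when among the 5 smallest adjusted p values of a contrast, when at the ends of a functional group, or as 12 fixed core genes; of the further lists, called genes were named, and otherwise those with the smallest adjusted p. Those at the ends of a group were extended to all 38. Labels call the samples biological replicates and give no further source, so p values measure the spread between these samples. The main fits did not pair arrays by replicate number. The residuals of arrays with the same number correlated above 0.1 in 3 of 9 pairs (range -0.275 to 0.219). Pairs with different numbers were not set beside them, so these correlations do not settle whether the arrays were paired. Precision is limited by the number of arrays. No 2 arrays were identical.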

Additional observations from a re-analysis of the deposited data

How the results depend on the processing

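The count of called genes stayed at 0 of 38 in nearly every alternative, including a block for the replicate number (0 in each comparison), the log2 threshold of 1.5, eBayes with a trend, only the groups compared, probe sets above the median level, the mean of all probe sets of a gene and centring on the array median. By the adjusted p alone, array weights with 9 arrays gave 11 of 38 genes for Qmimic and 13 for Dmimic, where equal weights gave 0. Without AllStar replicate 3, the adjusted p alone gave 1 gene for Qmimic, 2 for Dmimic and 2 for the mean of both. With the fold threshold kept, leaving out a mimic replicate as well gave 0 to 1 called for Dmimic, the 1 being WIPI1 without Dmimic replicate 2 (0.61, adjusted p = 0.0248). Fits left with 1 AllStar array were also run, and they assume that it varies like the other groups.

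The medians over the 38 genes with 9 arrays kept their sign but not their size. Leaving out single arrays gave 0.12 to 0.33 for Qmimic, 0.11 to 0.29 for Dmimic and 0.11 to 0.30 for the mean of both, each lowest without AllStar replicate 3. Quantile normalization repeated on the deposited values gave 0.13, 0.094 and 0.10, and array weights 0.13 for Qmimic and 0.087 for Dmimic; the cause was not tested. Of 72 results for 18 single genes, 58 kept their sign under every alternative run and 14 did not, all of a size up to 0.18 and none called (ATG4B, ATG5, LAMP1, LAMP2, MCOLN1, TFE3 and TFEB).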

Other observations

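Some listed genes differed between their probe sets. PIK3C3 was read by 7 probe sets; the one with the highest signal gave 0.12 ± 0.16 for Dmimic without AllStar replicate 3, while 2 with log2 signals of 4.61 to 6.36 gave 0.57 ± 0.28 and 0.44 ± 0.20 (adjusted p = 0.0462 and 0.0366). One at 5.13 to 6.92 gave 0.37 ± 0.28, and the other 3, at 2.78 to 5.73, gave 0.00 ± 0.19, -0.07 ± 0.17 and 0.01 ± 0.17. OPTN's other probe set gave 0.56 ± 0.32 for Qmimic and 0.47 ± 0.32 for Dmimic in that fit, above the 0.36 and 0.31 of the one used. Which transcripts these probe sets read was not analysed here.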
